A study of Mus musculus with 5 samples.

Results

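Kainic acid provokes seizures by opening kainate receptors, and the genes described here encode these receptors and their partners in the membrane. They are the 5 kainate receptor subunit genes Grik1, Grik2, Grik3, Grik4 and Grik5 and the NETO protein genes Neto1 and Neto2. Members were chosen by their symbol, 7 of 55144 genes counted in the series and found in the GENCODE M21 annotation, and each had reads in all 5 libraries. Total RNA of the hippocampus was sequenced from 3-month-old male C57/bl6 mice. The control library came from untreated mice, and the other 4 came from mice given kainic acid (20 mg/kg) by intraperitoneal injection, with 1, 4 or 8 h between the onset of seizures and the removal of the tissue. Kainate-treated mice whose seizures stopped short of continuous rearing and falling were left out by the authors. The control, 1 h and 8 h groups had 1 library each and the 4 h group had 2, here called library 1 and library 2. The sources used here do not say whether a library came from a single mouse, and no group of vehicle-injected mice was analysed here.

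Kainate receptors are glutamate-gated cation channels built from several subunits. GluK1, GluK2 and GluK3, the products of Grik1, Grik2 and Grik3, bind kainate with lower affinity and can form channels on their own, whereas GluK4 and GluK5, the products of Grik4 and Grik5, bind it with high affinity and need a subunit of the former kind to reach the cell surface. NETO1 and NETO2 are auxiliary membrane proteins that slow the closing of these channels. In the hippocampus, kainate receptors are known above all from the mossy fiber synapses of dentate granule cells on CA3 pyramidal cells and from interneurons, and mice that lack Grik2 are less sensitive to kainic acid.

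Gene reads per library came to 19100374 (control), 17744508 (1 h), 18250114 and 19109204 (4 h, library 1 and library 2) and 16612225 (8 h). Levels are given as normalized CPM, counts scaled to an equal library total after TMM scaling, in which a factor for each library equalizes the bulk of its genes. An interval in brackets after a level is the exact Poisson 95% interval of that count, and it covers counting error only. For every time point, the difference from the control was tested with the quasi-likelihood test of edgeR over the 19768 genes that passed its expression filter, among them all 7 genes described here. A gene was called at a Benjamini-Hochberg adjusted p under 0.05. Only the 4 h group was replicated, so the fit had 1 residual degree of freedom, under the assumption that the single libraries vary like the 4 h pair. The p-values therefore measure only the spread between these samples. For the tests at 1 h and 8 h too, this spread came from library 1 and library 2 at 4 h, pooled in part over all genes. Between library 1 and library 2 at 4 h, 735 of the 19768 genes differed at least 2-fold in normalized CPM plus 1.

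Genes known to be induced by seizures followed the labels. The transcription factor gene Fos stood at 10.8 normalized CPM in the control, 999 after 1 h, 519 and 70.4 after 4 h and 17.2 after 8 h. Bdnf, which encodes a neurotrophin, stood at 43.6, 208, 754, 316 and 96.7 normalized CPM in the same order. All 7 seizure-induced genes of a fixed list (Fos, Arc, Npas4, Egr1, Bdnf, Nptx2 and Inhba) exceeded the control both at 1 h and at 4 h, with median log2 fold changes of 3.51 and 4.07, as did 6 of 7 at 8 h, with a median of 0.67. The median at 4 h was 2.70 without library 1 and 5.02 without library 2, and in library 2 Npas4 (4.92 normalized CPM, 3.92 in the control) and Egr1 (30.9, 29.1 in the control) were close to the control. The quasi-likelihood test of edgeR called none of them in these 3 comparisons. In it, 7, 5 and 2 had an unadjusted p under 0.05, beside 2.42%, 11.6% and 4.51% of all genes tested. DESeq2 called 1, 3 and 1 of them, beside 49, 233 and 32 of all genes tested, and limma-voom called 0.

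Markers of the hippocampal fields were present in every library, but library 1 at 4 h stood apart. Brackets after a marker list name its gene with the highest mean level over the 5 libraries, which was not the highest in each of them. The sum of the 3 CA1 markers (Fibcd1) was 0.909 of the control at 1 h, 0.690 and 0.836 in library 1 and library 2 at 4 h and 0.826 at 8 h. That of the 3 CA2 markers (Rgs14) was 1.10, 0.562, 0.935 and 0.863 in the same order. The 3 CA3 markers together stood at 0.965, 3.31, 1.31 and 0.892 of the control, but this sum was mostly Nectin3, with 975 reads in the control and 3264 in library 1, whereas Iyd and Cdh24 had log2 fold changes of -0.11 and -0.19 after 4 h. Dentate granule cell markers also moved in opposite directions. Their sum was 1.01, 1.67, 1.32 and 1.45 of the control, with Prox1 (the highest mean) and Pdzd2 higher at 4 h (log2 fold changes of 1.28 and 1.22) and Dsp, the most abundant of the 3 in the control, lower (-2.99). The higher sum at 8 h was mostly Pdzd2, with 51.1 normalized CPM in the control and 120.3 at 8 h. Prox1 stood at 60.0 and 77.1 and Dsp at 72.2 and 68.5.

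Of the neighbouring tissues, the 3 thalamus markers (Prkcd, which was below Slc17a6 outside the 4 h libraries) summed to 62.4 normalized CPM in the control, 73.2 after 1 h, 312 and 126 after 4 h and 55.1 after 8 h. The 3 choroid plexus markers, mostly Ttr, summed to 3894, 1642, 26.0, 4142 and 3010.0 in the same order. Library 1 thus held the most reads of thalamus markers and the fewest of choroid plexus markers. Striatum markers (Drd1) summed to between 9.10 and 24.0 normalized CPM.

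Among cell types, the 3 markers of excitatory neurons (Slc17a7) stood at 0.965, 0.714, 0.844 and 0.959 of the control and the 7 of GABAergic interneurons (Gad1) at 1.11, 1.63, 1.35 and 1.00, at 1 h, in library 1 and library 2 at 4 h and at 8 h. The latter sum was mostly Gad1 and Gad2, and Slc32a1 and Lhx6 were lower in library 1 (28.2 and 8.37 normalized CPM) than in the control (31.6 and 10.2) and the other 5 of the 7 were higher. The excitatory markers moved in opposite directions at 8 h. Neurod2 stood at 71.0 normalized CPM in the control, 43.4 and 76.4 after 4 h and 139.7 after 8 h. Neurod6 stood at 144, 60.9, 67.1 and 104 and Slc17a7 at 640, 506, 578 and 576 in the same order. The 3 markers of all neurons (Snap25) ranged from 0.863 to 1.06 of the control, the 4 of microglia (Csf1r) from 0.805 to 1.01, the 3 of endothelium (Flt1) from 0.945 to 1.59 and the 2 of oligodendrocyte precursors (Pdgfra) from 0.891 to 1.21. The 4 astrocyte markers (Slc1a3) were between 1.10 and 1.65 of the control, with Gfap at 221 normalized CPM in the control and 587 at 8 h and Slc1a3 at 509 and 579, and the 4 oligodendrocyte markers (Mbp) between 1.01 and 1.52. No marker was at 0 in all libraries. The part of these differences in the levels of kainate receptor genes was not tested, and in bulk tissue fewer cells of a type and less RNA per cell cannot be told apart.

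**Figure D1:**
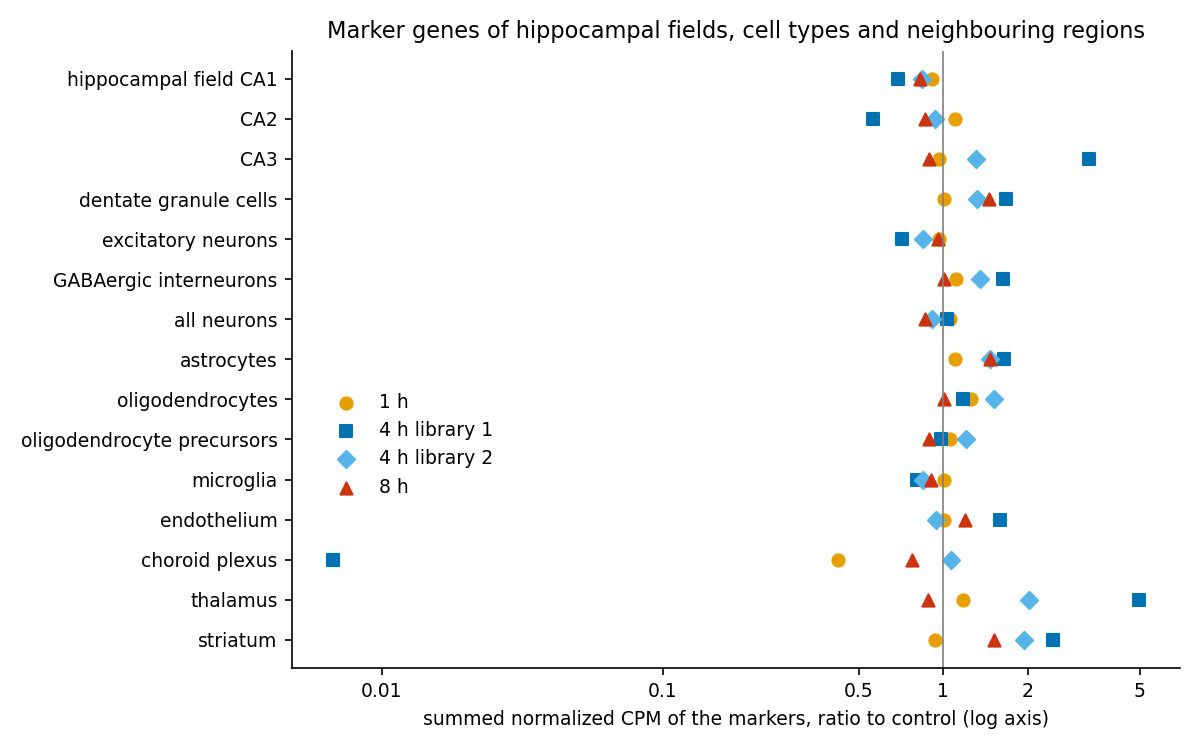
Summed normalized CPM of each marker list in the 4 kainate libraries as a ratio to the control (log axis); colors and symbols mark the libraries and the grey line marks a ratio of 1. Library 1 at 4 h lies farthest from the control for choroid plexus (0.00668) and thalamus (4.99).

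Levels of different genes are compared per kilobase of annotated exon, the union of all exons of a gene in GENCODE M21. In the control, Neto1 stood highest with 12.4 normalized CPM per kb, followed by Grik5 with 12.2, Neto2 with 10.3, Grik2 with 7.95, Grik4 with 7.77, Grik3 with 5.47 and Grik1 with 2.68. The counting intervals of the neighbours Neto1 and Grik5 and of the neighbours Grik2 and Grik4 overlapped, and those of all other neighbours did not. Neto2 exceeded Grik2, Grik4 exceeded Grik3 and Grik3 exceeded Grik1 in 5 of 5 libraries, while Neto1 exceeded Grik5 in 1 of 5 libraries, the control. At 8 h the order began with Grik4 at 13.7 normalized CPM per kb and Grik5 at 11.3, and Neto1 had come to the fourth place with 7.14. Grik1 stood last in all 5 libraries. These orders depend on the length used, because the union of exons is longer than the longest annotated transcript for 5 of the 7 genes. With the longest transcript, Grik5 stood first in all 5 libraries, and Grik3 instead of Grik1 stood last in both 4 h libraries.

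**Figure D2:**
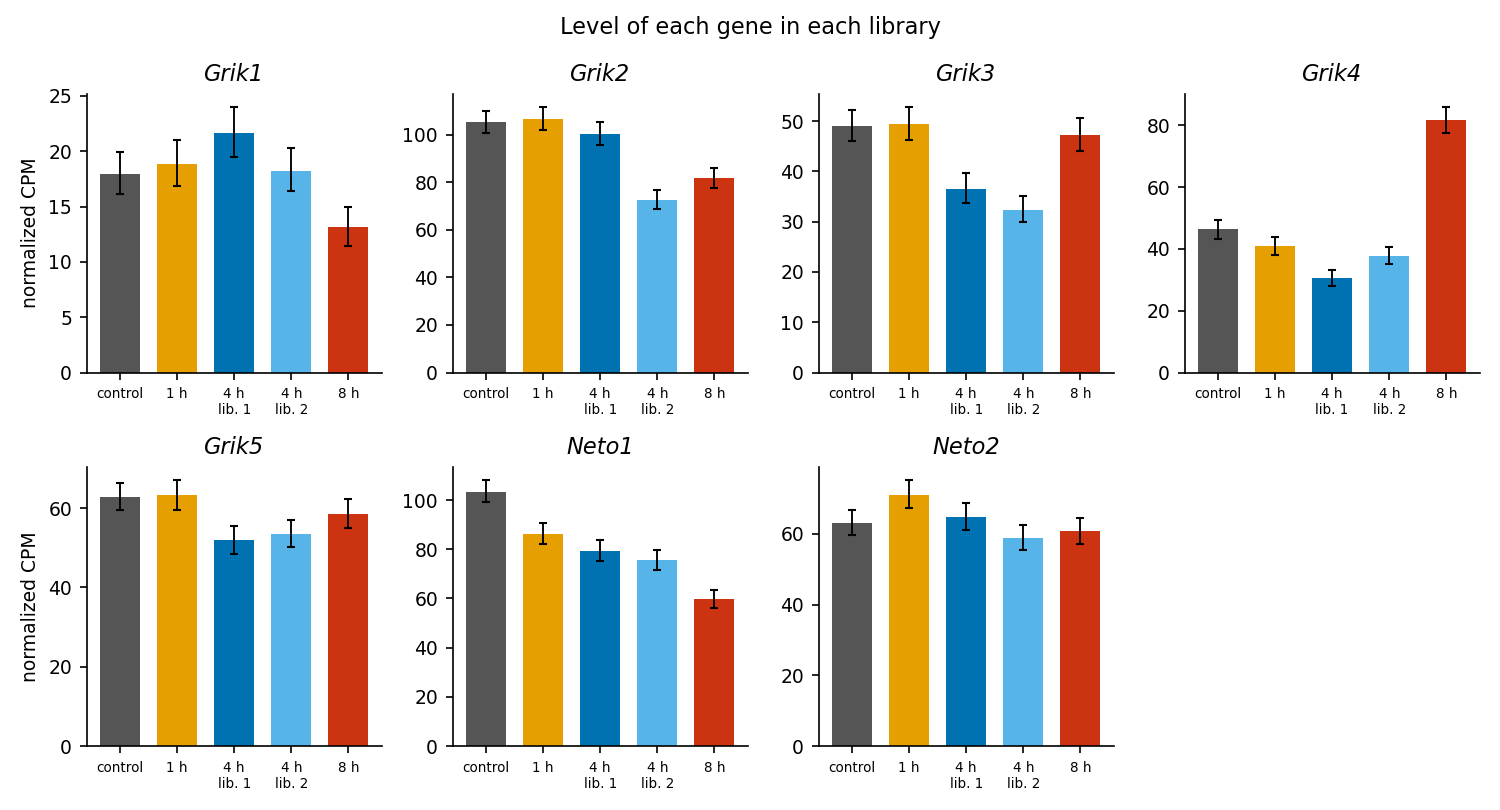
Normalized CPM (vertical axes, each starting at 0) of the 7 genes in the 5 libraries; bars are single libraries and error bars are exact Poisson 95% intervals of the counts. Grik4 is highest at 8 h (81.7), and Neto1 is lower in each kainate library than in the control (103).

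Among the lower-affinity subunits, Grik2 was the most abundant per length. GluK2 is the main subunit of kainate receptors in principal cells of the hippocampus, and its gene (ENSMUSG00000056073.16) lies at chr10:49094833-49788766 on the minus strand of GRCm38. Grik2 stood at 105 normalized CPM in the control (101 to 110.0), 107 after 1 h, 100.4 in library 1 and 72.7 in library 2 after 4 h, and 81.9 after 8 h. The 4 h pair was farther apart here than for any other of the 7 genes, 1.38-fold, and library 1 lay close to the control while library 2 was the lowest of all libraries. The mean at 4 h was 86.6 ± 19.6 (SD, n = 2). For 1, 4 and 8 h the log2 fold changes of Grik2 were 0.02 (SE 0.27), -0.28 (SE 0.24) and -0.36 (SE 0.27), and the value for 4 h was -0.53 without library 1 and -0.07 (-0.065) without library 2. The corresponding adjusted p-values in the quasi-likelihood test of edgeR were 1, 0.669 and 1.

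Grik3, whose product GluK3 forms receptors that need high glutamate concentrations, lies at chr4:125490700-125714173 on the plus strand (ENSMUSG00000001985.9) and has a single annotated transcript. Control and 1 h libraries stood at 49.0 (46.0 to 52.2) and 49.4 (46.2 to 52.8) normalized CPM. At 4 h the level was 36.6 in library 1 (33.8 to 39.6) and 32.4 in library 2 (29.9 to 35.0), and at 8 h it was 47.3 (44.1 to 50.6). Both 4 h libraries were lower than the 3 other libraries, beyond counting error, and the interval of the 8 h library overlapped that of the control. The mean at 4 h was 34.5 ± 2.98 (SD, n = 2). Its log2 fold change of -0.51 at 4 h (SE 0.20) had an unadjusted p of 0.0452 and an adjusted p of 0.422 from the quasi-likelihood test of edgeR, so Grik3 was not called. From 4 h to 8 h its log2 fold change was 0.46 (SE 0.20, adjusted p = 0.601, the quasi-likelihood test of edgeR).

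Grik1, which is prominent in interneurons, was the subunit with the fewest reads, between 230 and 365. The gene (ENSMUSG00000022935.16) lies at chr16:87895900-88290265 on the minus strand. Its level was 18.0 normalized CPM in the control (16.2 to 20.0), 18.8 after 1 h, 21.7 and 18.2 in library 1 and library 2 after 4 h, and 13.1 after 8 h (11.5 to 14.9). The 8 h library was the lowest, with an interval below those of the 4 other libraries, and the highest was library 1 at 4 h. Grik1 had log2 fold changes of 0.07 at 1 h, 0.15 at 4 h (0.02 without library 1, 0.27 without library 2) and -0.45 at 8 h, the last with SE 0.30 and an adjusted p of 1 in the quasi-likelihood test of edgeR.

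Of the high-affinity subunits, Grik4 differed most between libraries of all 7 genes. GluK4 is known from CA3 pyramidal cells and their mossy fiber synapses, and Grik4 (ENSMUSG00000032017.14) lies at chr9:42518135-42944493 on the minus strand, with 59 bp (0.990%) of its exons shared with the gene Gm24420 on the same strand. Grik4 had 922 reads in the control, 719 after 1 h, 513 and 716 in library 1 and library 2 after 4 h, and 1432 after 8 h. The normalized CPM were 46.3 for the control (43.4 to 49.4), 40.9 for 1 h (38.0 to 44.0), 30.5 (27.9 to 33.2) and 37.9 (35.1 to 40.7) for 4 h and 81.7 for 8 h (77.5 to 86.0). The 8 h library was the highest and both 4 h libraries were the lowest, and the intervals of the 8 h library and the control did not overlap. The ratio of the highest to the lowest of the 5 libraries was 2.68, and that between the 4 h libraries was 1.24. The lowest library, library 1 at 4 h, enters both ratios, and the former is picked as the extreme. Against the control, Grik4 had log2 fold changes of -0.18 (SE 0.25) after 1 h, -0.44 (SE 0.21) after 4 h and 0.82 (SE 0.25) after 8 h. Adjusted p-values in the quasi-likelihood test of edgeR were 1, 0.496 and 1, and the unadjusted p at 8 h was 0.0199. The value at 4 h was -0.29 without library 1 and -0.60 without library 2. Over the other settings with a test, the adjusted p at 8 h ranged from 0.230 to 1.

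The direct comparison of 8 h with 4 h was added after the levels of Grik4 had been seen. Grik4 had a log2 fold change of 1.25 (SE 0.21, 95% interval 0.73 to 1.78) in it and the smallest p among the 7 genes, which was in place 51 among all genes tested. The unadjusted p was 0.00138 and the adjusted p 0.463 in the quasi-likelihood test of edgeR, so it was not called. It was called with 4 of 10 other settings that gave a test, among them DESeq2 with an adjusted p of 0.0390. These 4 settings called many genes, 120 with library size alone, 957 with no filter on low counts, 132 with DESeq2 and 660 with a fixed biological coefficient of variation of 0.2. Over the 10 settings the adjusted p of Grik4 ranged from 5.65e-06 to 1. Without library 1 the log2 fold change was 1.11 and without library 2 it was 1.42.

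Grik5 encodes the other high-affinity subunit, GluK5, a common partner of GluK2, and lies at chr7:25009849-25072346 on the minus strand (ENSMUSG00000003378.9). It stood at 62.9 normalized CPM in the control (59.4 to 66.4), 63.2 after 1 h, 51.9 and 53.6 after 4 h, and 58.6 after 8 h (55.1 to 62.3). The 4 h libraries were within 1.03-fold of each other and below the other libraries. Grik5 had a log2 fold change of -0.25 at 4 h (SE 0.17, adjusted p = 0.610, the quasi-likelihood test of edgeR), and of 0.01 and -0.10 at 1 h and 8 h. Grik5 thus lacked the high level at 8 h that Grik4 had. The ratio of Grik4 to Grik5 reads per length was 0.639 in the control (exact binomial 95% interval 0.586 to 0.696), 0.561 after 1 h, 0.509 and 0.613 after 4 h, and 1.21 after 8 h (1.11 to 1.31).

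Promoter sequences of these 2 subunit genes are shown because their levels parted at 8 h. RefSeq promoters (GRCm38.p6) were found for 5 of the 7 genes, Grik2, Grik3, Grik4, Grik5 and Neto2. The 250 bases before each annotated start were searched on both strands for the cAMP response element TGACGTCA, its core TGACG, which is contained in it, the AP-1 motif TGANTCA, the EGR motif GCGNGGGCG and the GC box GGGCGG. For Grik4 the bases upstream of the outermost start in GENCODE are printed (chr9:42944494-42944621, minus strand), and for Grik5 all 250 bases before the RefSeq start (chr7:25072370-25072619, minus strand), both 5′ to 3′ with GC boxes in capitals.
Grik4: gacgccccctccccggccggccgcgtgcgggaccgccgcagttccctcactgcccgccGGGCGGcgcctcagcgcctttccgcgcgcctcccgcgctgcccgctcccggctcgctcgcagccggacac
Grik5: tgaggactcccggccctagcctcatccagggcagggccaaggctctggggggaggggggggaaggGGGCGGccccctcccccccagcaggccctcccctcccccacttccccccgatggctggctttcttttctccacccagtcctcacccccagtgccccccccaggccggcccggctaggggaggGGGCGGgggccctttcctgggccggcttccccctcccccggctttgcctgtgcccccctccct
The Grik4 window held 1 GC box and the Grik5 window 2. The Grik3 window held 6, the window of Grik2 held none, and of the 2 windows of Neto2 the outer one held 2. The other 4 motifs were found in none of these windows. Of all 32851 promoters of the table, 32.7% held the GC box in a window of this length, 17.8% TGACG, 6.75% the AP-1 motif, 4.70% the EGR motif and 1.55% the full cAMP response element.

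NETO proteins slow the decay of kainate receptor currents, and the gene of NETO1 was lower than the control in every kainate library. Neto1 (ENSMUSG00000050321.3) lies at chr18:86394952-86506718 on the plus strand, and 219 bp (2.62%) of its exons overlap AC113599.1 on the opposite strand. Neto1 had 2059 reads in the control, 1516 after 1 h, 1335 and 1430 after 4 h, and 1046 after 8 h. The normalized CPM were 103 for the control (99.0 to 108), 86.3 for 1 h (82.0 to 90.7), 79.3 (75.1 to 83.7) and 75.6 (71.8 to 79.6) for 4 h and 59.7 for 8 h (56.1 to 63.4). The control was the highest and the 8 h library the lowest, and the 4 h libraries were within 1.05-fold of each other. Against the control, its log2 fold changes were -0.26 (SE 0.19) after 1 h, -0.42 (SE 0.16) after 4 h and -0.79 (SE 0.19) after 8 h. The quasi-likelihood test of edgeR gave unadjusted p-values of 0.225, 0.0475 and 0.00782 and adjusted p-values of 1, 0.426 and 0.906, so Neto1 was not called. Over the other settings with a test, the adjusted p at 8 h ranged from 0.0983 to 1.

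Orders of libraries like these were also counted over all genes tested, after the values had been seen. Levels below the control in all 4 kainate libraries were found for 1 of the 7 genes, Neto1, and for 20.6% of the 19768 genes. A descending order from the control over 1 h and both 4 h libraries to 8 h was found for Neto1 alone of the 7 and for 2.67% of all genes tested. The order of Grik4, below the control at 1 h and in both 4 h libraries and at least 1.5-fold above it at 8 h, was found for 0.703% of all genes tested.

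Neto2 (ENSMUSG00000036902.11, chr8:85636588-85700924, minus strand, 20 bp of exon opposite to Mir8109) stayed within the narrowest range of the 7 genes. It stood at 63.1 normalized CPM in the control (59.6 to 66.6), 71.1 after 1 h (67.2 to 75.1), 64.7 and 58.9 after 4 h, and 60.8 after 8 h. The 1 h library was the highest and had the only interval that lay above the one of the control. The log2 fold changes were 0.17 (SE 0.21), -0.03 (SE 0.18) and -0.05 (SE 0.21) at 1, 4 and 8 h, and the value at 4 h was -0.10 (-0.095) without library 1 and 0.04 without library 2. The ratio of Neto2 to Neto1 reads per length was 0.831 in the control (exact binomial 95% interval 0.774 to 0.891), 1.12 after 1 h, 1.11 and 1.06 after 4 h, and 1.39 after 8 h (1.27 to 1.51). It was thus higher in all 4 kainate libraries than in the control, beyond counting error, and no test between conditions was made for it.

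None of the 7 genes was called in any comparison when the p-values of edgeR's quasi-likelihood fit were adjusted over all genes. At 1 h against the control, 0 of the 7 and 0% of all genes tested were called, and at an unadjusted p under 0.05 it was 0 of the 7 and 2.42%. At 4 h, 0 of the 7 and 0.00506% of all genes (1 gene) were called, and 2 of the 7, Grik3 and Neto1, and 11.6% of all genes had an unadjusted p under 0.05. At 8 h, 0 of the 7 and 0% of all genes were called, and 2 of the 7, Grik4 and Neto1, and 4.51% of all genes had an unadjusted p under 0.05.

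Taking the 4 kainate libraries as 1 group against the control, 0 of the 7 and 0% of all genes were called, and 0 of the 7 and 2.30% had an unadjusted p under 0.05. The fit of this grouped comparison had 3 residual degrees of freedom. Its spread came from the kainate libraries of all 3 times and so also held any change with time. Here Neto1 had the lowest log2 fold change, -0.46 (SE 0.22, adjusted p = 0.936, the quasi-likelihood test of edgeR), and Grik4, whose libraries differed in direction, had a value of 0.04 (SE 0.51), which was 0.21 without library 1 and 0.14 without library 2. Between 8 h and 4 h, 0 of the 7 and 0% of all genes were called, and 1 of the 7, Grik4, and 8.73% of all genes had an unadjusted p under 0.05. DESeq2 called 0 of the 7 genes in each comparison with the control and 1, Grik4, between 8 h and 4 h, and limma-voom called 0 in all of them. Over all genes tested, DESeq2 called 49, 233 and 32 at 1, 4 and 8 h, 13 in the grouped comparison and 132 between 8 h and 4 h, while limma-voom called 0 in each.

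By direction, 5 of the 7 genes were higher than the control at 1 h, 1 was higher at 4 h (Grik1) and 1 at 8 h (Grik4). Of all genes tested, 50.9%, 49.2% and 48.9% were lower than the control at 1, 4 and 8 h. At 1 h, 4 of the 5 higher genes, Grik1, Grik2, Grik3 and Grik5, were lower than the control with library size alone as the scaling, which moved the median of all genes tested from -0.01 to -0.08, and all 4 lay above that median. The median log2 fold changes of the 7 genes for 1, 4 and 8 h were 0.01, -0.28 and -0.10, beside medians of -0.01, 0.01 and 0.01 over all genes tested. The comparisons share the control library, so a high or low level in it enters all of them.

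**Figure D3:**
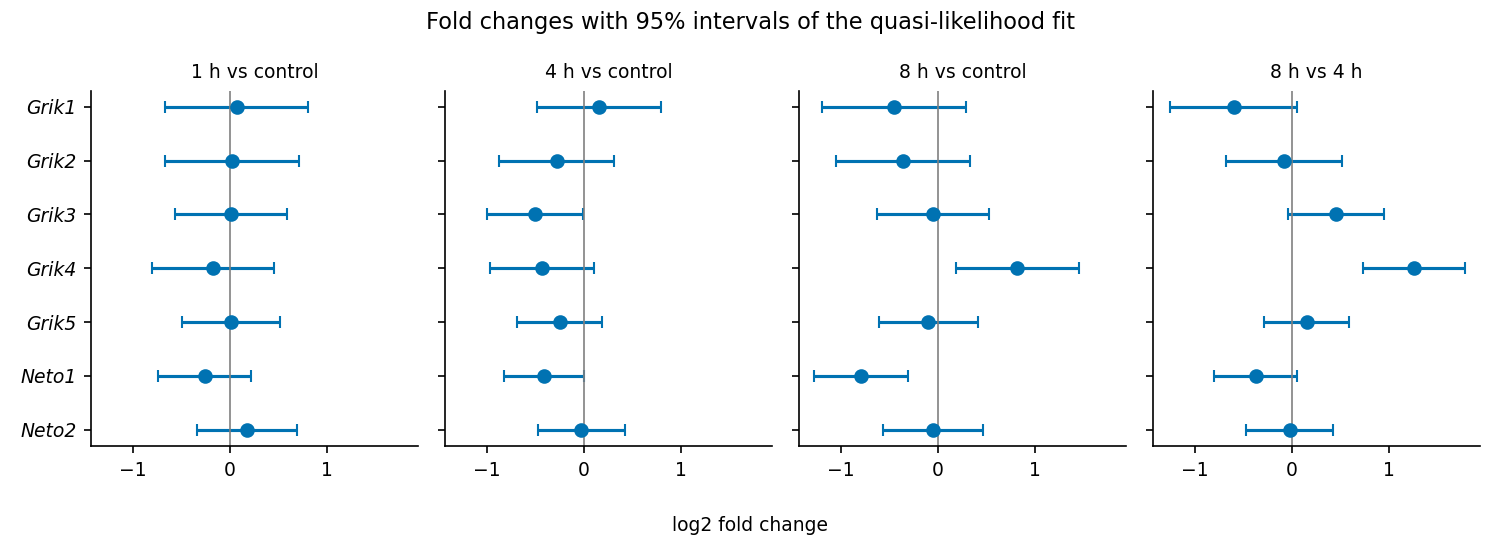
Log2 fold change (horizontal axis) of the 7 genes in 4 comparisons; points are estimates of edgeR's quasi-likelihood fit and bars are their 95% intervals. The interval lies above 0 for Grik4 at 8 h against the control and against 4 h, and below 0 for Neto1 at 4 h and 8 h and Grik3 at 4 h; none was called after adjustment over all genes.

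The subunit composition was computed within each library, since a ratio of genes in a library does not depend on the scaling between libraries. Per length, Grik4 made up 21.6% of the Grik reads in the control, 19.3% after 1 h, 17.0% and 22.3% after 4 h and 35.6% after 8 h. Grik5 made up 33.8%, 34.5%, 33.4%, 36.3% and 29.5% and Grik2 made up 22.1%, 22.7%, 25.2%, 19.2% and 16.1% in the same order. Grik3 ranged from 12.6% to 15.5% and Grik1 from 5.08% to 10.7%, also per length. With this length, Grik4 was the largest share at 8 h and Grik5 in the other libraries. With the longest transcript, Grik5 was above Grik4 at 8 h as well (14.4 and 13.9 normalized CPM per kb). As plain reads, Grik2 was the largest share in all 5 libraries, making up 37.4% of the Grik reads of the control, and its 8 h share was level with that of Grik4 (29.0% and 28.9%).

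The high-affinity subunits together made up 55.3% of the Grik reads per length in the control, 53.8% after 1 h, 50.4% and 58.6% after 4 h and 65.1% after 8 h. As plain shares of reads these were 38.8% (exact binomial 95% interval 37.5% to 40.1%), 37.3%, 34.2%, 42.6% and 49.7% (48.3% to 51.1%). The 8 h share was above those of all other libraries beyond counting error, but the 4 h libraries lay on either side of the control and differed from each other by more than counting error. The sum of the Grik genes itself was 36.0 normalized CPM per kb in the control, 35.5 after 1 h, 30.0 and 28.5 after 4 h and 38.5 after 8 h. No test between conditions was made for shares.

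**Figure D4:**
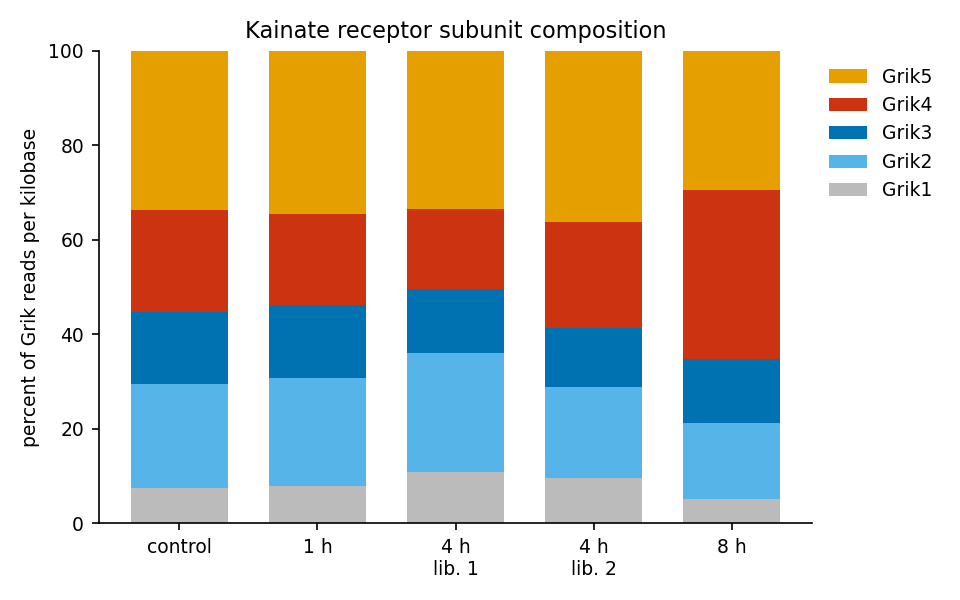
Share of each subunit in the Grik reads per kilobase of exon (vertical axis, percent) in the 5 libraries, stacked to 100. The Grik4 segment is 21.6% in the control and 35.6% after 8 h.

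Other ionotropic glutamate receptor subunits are the closest relatives of these genes. Of the 13 genes of a fixed list, 12 were analysed here, namely the AMPA receptor genes Gria1 to Gria4, 7 NMDA receptor genes and Grid1, and 11 of them passed the expression filter. Grin3b did not pass it, with at most 0.297 normalized CPM. None of the 11 was called at 1, 4 or 8 h by the quasi-likelihood test of edgeR, by DESeq2 or by limma-voom. In the test of edgeR, 0 had an unadjusted p under 0.05, beside 2.42%, 11.6% and 4.51% of all genes tested. At 4 h, 4 were higher and 7 lower than the control, while 49.2% of all genes tested were lower. Their median log2 fold change at 4 h was -0.07, beside -0.28 for the 7 Grik and Neto genes. The medians at 1 h and 8 h were 0.06 and -0.09. Between 8 h and 4 h, 2 of the 11 had an unadjusted p under 0.05 in the quasi-likelihood test of edgeR, beside 8.73% of all genes tested, and 0 were called.

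The largest differences in this list at 4 h were those of Grin2d, with a log2 fold change of 0.60, and Grin3a, with -0.37. Grin2d, an NMDA receptor gene of interneurons, stood at 2.31 normalized CPM in the control, 1.93 after 1 h, 4.04 and 3.07 after 4 h and 1.43 after 8 h. Next to Grin2d came Grin2b (0.09) and Grin1 (0.05), and next to Grin3a came Grid1 (-0.20) and Gria4 (-0.12). The adjusted p-values at 4 h in the quasi-likelihood test of edgeR were 0.641 for Grin2d and 0.525 for Grin3a. At 8 h, 2 of the 11 were higher, Grin2a (0.37) and Grin2b (0.30), while 48.9% of all genes tested were lower than the control.

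Proteins that edit, bind, anchor or modify kainate receptors formed a list of 21 genes, of which 20 were analysed here and passed the filter. None was called at 1, 4 or 8 h by the quasi-likelihood test of edgeR, and 0, 4 and 2 of 20 had an unadjusted p under 0.05, beside 2.42%, 11.6% and 4.51% of all genes tested. DESeq2 called 0, 1 and 0 of them (C1ql2 at 4 h), beside 49, 233 and 32 of all genes tested, and limma-voom called 0. The median log2 fold changes of the list were 0.06 (rounded from 0.055), 0.08 and 0.02, and the one at 4 h was 0.17 without library 2. At 4 h, 13 were higher and 7 lower than the control, while 49.2% of all genes tested were lower. Between 8 h and 4 h, 5 of 20 had an unadjusted p under 0.05 in the quasi-likelihood test of edgeR, beside 8.73% of all genes tested. That test called 0 of them and DESeq2 called 1, beside 0 and 132 of all genes tested.

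The lowest log2 fold change of the list at 4 h was that of C1ql2, whose secreted product is released by mossy fibers and binds GluK2 and GluK4. C1ql2 stood at 29.3 normalized CPM in the control, 27.9 after 1 h, 11.0 and 11.7 in library 1 and library 2 after 4 h and 58.1 after 8 h. Like Grik4, it was lowest in both 4 h libraries and highest at 8 h. The log2 fold change was -1.36 at 4 h (unadjusted p 0.000918, adjusted p 0.245, the quasi-likelihood test of edgeR) and 0.98 at 8 h (0.00892 and 0.922). Between 8 h and 4 h, C1ql2 had a log2 fold change of 2.34 (unadjusted p 5.51e-05, adjusted p 0.363, the quasi-likelihood test of edgeR). Its relative C1ql3 did not share this order, with 107, 118, 109.6, 61.2 and 42.4 normalized CPM, the lowest at 8 h.

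Further genes with the lowest values at 4 h were Klhl24, with a log2 fold change of -0.73 (adjusted p = 0.351, the quasi-likelihood test of edgeR), and C1ql3, with -0.33 (adjusted p = 0.733). C1ql3 stood at 107 normalized CPM in the control, 109.6 in library 1 and 61.2 in library 2, so its value rests on library 2. The product of Klhl24 binds GluK2. Klhl24 stood at 153 normalized CPM in the control and at 80.2 and 105 after 4 h. The highest at 4 h were Adarb1, with 0.90 (adjusted p = 0.395), Cul3, with 0.56 (adjusted p = 0.350), and Dlg1, with 0.42 (adjusted p = 0.568). Dlg1 stood at 177 normalized CPM in the control, 280 in library 1 and 194 in library 2, so its value rests mostly on library 1. Adarb1 encodes the enzyme that edits the RNA of glutamate receptor subunits, and stood at 185 normalized CPM in the control, 191 after 1 h, 428 and 263 after 4 h and 193 after 8 h. The higher of the 4 h values came from library 1, which also had the highest level of thalamus markers, and a link between these was not tested.

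**Figure D5:**
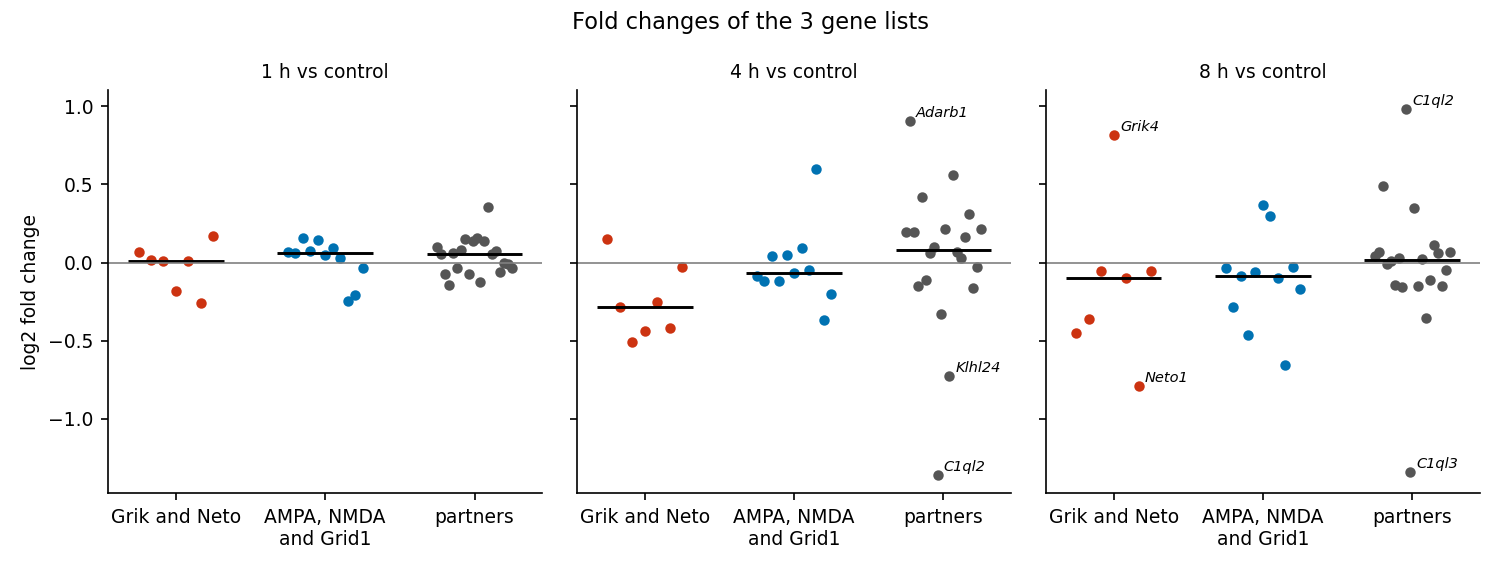
Log2 fold changes against the control (vertical axis) of the 7 Grik and Neto genes, 11 other ionotropic glutamate receptor genes and 20 partner genes at 1, 4 and 8 h; points are genes and black lines are list medians. At 4 h the median of the Grik and Neto genes is -0.28, and C1ql2 (-1.36) and Adarb1 (0.90) are the outermost partner genes.

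For each of the 7 genes, the 3 genes with the most similar levels over the 4 kainate libraries relative to the control were sought among 11875 genes with a mean of at least 5 normalized CPM. Similarity was the root-mean-square difference of the log2 ratios to the control, computed with 1 added to each level. For Grik4 they were Homer3 (0.11), Gsg1l (0.13) and March4 (0.14), and 5 of the 11875 genes lay within 0.15 of it. Homer3, which encodes a postsynaptic scaffold protein, stood at 40.1 normalized CPM in the control, 37.0 after 1 h, 26.4 and 35.5 after 4 h and 62.6 after 8 h. Gsg1l, whose product is an auxiliary subunit of AMPA receptors, stood at 18.8, 16.8, 10.2, 16.1 and 35.1. Both were thus highest at 8 h and lowest in library 1 at 4 h.

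For Neto1 the most similar genes were Enox2 (0.01), Rac3 (0.04) and Ppp1r26 (0.05), with 78 genes within 0.15. For Grik3 they were Pou3f3 (0.04), Clasp1 (0.05) and Slc25a27 (0.05), with 279 genes within 0.15, and for Grik1 they were Leng1 (0.03), Robo1 (0.05) and Ptn (0.06), with 249. Grik2 was nearest to 9330121K16Rik, Rap1gap2 and Ppargc1a (each 0.06), with 111 genes within 0.15. Grik5 and Neto2, whose levels moved little, had 1804 and 1518 genes within 0.15, the nearest being Tshz1, A930017M01Rik and Fam120b (each 0.02) for Grik5 and Cep120 (0.02), Diras2 (0.03) and Pxn (0.03) for Neto2.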

How the data were processed

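Stranded libraries of total hippocampal RNA were prepared by the authors. Their processing notes name STAR 2.5.1b for alignment, HTSeq for counting and GRCm38.p4 as the genome. The authors deposited raw counts per gene, without normalization, and neither the strand setting of HTSeq nor its annotation release is given in the sources used here. Left out were the lines for reads on no annotated feature (24.7% to 33.1% of all counted reads), on several genes (1.26% to 1.52%) and at several places of the genome (9.67% to 11.6%). The share on no annotated feature was 24.7% in the control, 29.0% at 1 h, 33.1% and 25.3% in library 1 and library 2 at 4 h and 30.9% at 8 h. Its part in the levels was not tested. By identifier, 55144 genes were found in GENCODE M21 (GRCm38), 54487 of them in the same version.

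Counts were filtered with filterByExpr, scaled with TMM and tested in edgeR 4.0.16 (R 4.3.3) by the quasi-likelihood test with Benjamini-Hochberg adjustment over all 19768 genes; a prior count of 2 entered the log2 fold changes. The tests were checked on simulated data. The p-values measure only the spread between these samples, and the counting intervals cover counting error only. Intervals of counts are exact Poisson and those of ratios exact binomial 95% intervals. The alternatives comprised scaling by median-of-ratios factors or by library size alone, other filters, DESeq2 1.42.0, limma-voom (limma 3.58.1), fixed biological coefficients of variation, robust estimation, another prior count, each 4 h library left out, raw counts in place of counts per length, the longest transcript as length, and other settings for similar genes. Figures were drawn with matplotlib in Python.

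The text names all 7 genes, of the lists of other ionotropic subunits and of receptor partners the genes past the threshold and up to 3 largest rises and 3 largest falls at 4 h, the seizure-induced genes, the marker lists of fields, cell types and neighbouring regions, and the 3 genes most similar to each of the 7. Genes named beyond this were chosen after their values were seen. Members and lists were chosen with earlier results of these data known, and the comparison of 8 h with 4 h was chosen after the data had been seen.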

Additional observations from a re-analysis of the deposited data

Results flagged for a closer look

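Grik4 was lower than the control at 1 h and 4 h and higher at 8 h, each beyond the counting error of the ratio. Its level was 0.883 of the control at 1 h, 0.658 and 0.817 in library 1 and library 2 at 4 h, and 1.76 at 8 h. The difference between 8 h and 4 h had an adjusted p of 0.463 in edgeR's quasi-likelihood test, and the difference between 8 h and 1 h was not tested. With 1 library at 1 h and 1 at 8 h, differences between mice and between times cannot be told apart.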

How the results depend on the processing

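Of 420 log2 fold changes of the 7 genes under 12 alternative settings, 13 reversed and 4 passed the threshold. Of the 403 others, 400 kept their direction, and 3 with no test changed sign. These were Grik2 (0.170) and Neto2 (0.045) between 8 h and 4 h without library 1 and Neto2 (0.042) at 4 h without library 2. With library size alone, which moved the median of all genes to -0.08 (-0.077) at 1 h, -0.11 at 4 h, -0.06 (-0.055) in the grouped comparison and 0.12 between 8 h and 4 h, the value at 1 h was -0.01 (-0.007) for Grik1, -0.05 (-0.054) for Grik2, -0.06 (-0.061) for Grik3 and -0.07 (-0.065) for Grik5. In the grouped comparison it was -0.01 (-0.006) for Grik4 and -0.06 (-0.057) for Neto2, and between 8 h and 4 h 0.07 for Grik2 and 0.12 for Neto2. The grouped value of Grik1 was 0.001 with median-of-ratios factors and with DESeq2 and 0.000 with at least 10 counts in every library, and that of Grik4 was -0.06 (-0.064) with limma-voom. Neto2 between 8 h and 4 h was 0.003 with at least 10 counts in every library. The main values of these genes were within 0.08 of 0, and the cause was not tested.

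Grik4 between 8 h and 4 h was called, as 1 of the 7 genes, with library size alone (log2 fold change 1.39, adjusted p 0.0287), no filter (1.25, 5.65e-06), DESeq2 (1.26, rounded from 1.255; 0.0390) and a fixed biological coefficient of variation of 0.2 (1.25, 0.0135). Its adjusted p over 10 settings with a test ranged from 5.65e-06 to 1. No other of the 7 genes was called under any setting.

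The number of all genes called at 1, 4 and 8 h was 57, 237 and 22 with library size alone, 285, 1300 and 279 with no filter, 49, 233 and 32 with DESeq2, 238, 916 and 184 with a fixed coefficient of 0.2 and 40, 81 and 12 with one of 0.4. It was 0 at 4 h with median-of-ratios factors, with limma-voom and with at least 10 counts in every library, and 1 at 1 h with the last of these and with robust estimation. The grouped comparison called 13 with DESeq2, 545 with a coefficient of 0.2 and 64 with 0.4. Between 8 h and 4 h the numbers were 120 with library size alone, 957 with no filter, 132 with DESeq2, 660 with 0.2 and 48 with 0.4. The cause was not tested.

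As raw counts in place of counts per length, the ratio of low-affinity to high-affinity subunits was 1.58 (control), 1.68 (1 h), 1.93 and 1.35 (4 h) and 1.01 (8 h) (0.808, 0.858, 0.982, 0.707 and 0.535 per length), and that of Neto2 to Neto1 was 0.610, 0.824, 0.816, 0.779 and 1.02. Of 25 subunit shares, 24 moved beyond their counting interval, since lengths differ between genes. With the longest transcript, 5, 5, 0, 3 and 3 of the 7 genes kept their rank in the libraries in this order. Of 21 similar genes, 18 were shared with a prior of 0.1 and 15 with a mean of at least 1 normalized CPM.

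No paired analysis was possible because the control, 1 h and 8 h groups have 1 library each. Leaving out a 4 h library left no residual degree of freedom in the fit of the 4 groups, so those values have no test. The 4 h log2 fold changes then ranged from -0.60 to -0.42 for Grik3, from -0.60 to -0.29 for Grik4, from -0.45 to -0.38 for Neto1, from -0.53 to -0.07 for Grik2, from 0.02 to 0.27 for Grik1, from -0.27 to -0.23 for Grik5 and from -0.10 (-0.095) to 0.04 for Neto2. Between 8 h and 4 h, Grik2 ranged from -0.30 to 0.17 and Neto2 from -0.09 to 0.05 (0.045). In the grouped comparison, Grik4 (0.04 with both libraries) ranged from 0.14 to 0.21, Grik3 (-0.24) from -0.19 to -0.14, Grik2 (-0.22) from -0.27 to -0.13, Grik1 (-0.002) from -0.101 to -0.007 and Neto2 (0.02) from 0.015 to 0.057. Grik1 had the fewest reads, between 230 and 365, and so the widest counting intervals relative to its level.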
